A study of Mus musculus with 8 samples.

Results

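The SoxB1 and SoxC genes of the Sox family of transcription factors were followed in cultured mouse cortical neurons that lacked the histone variant H2BE: Sox1, Sox2 and Sox3 of the SoxB1 group, and Sox4, Sox11 and Sox12 of the SoxC group. They were taken by gene symbol as a group, which was chosen with earlier results of these data known. All 6 were found among the 26229 genes of the authors' deposited table. The tested neurons carried the genotype H2BE-KO/mCherry-KI (knockout, KO), in which the gene of H2BE, H2bc21, was disrupted and an mCherry reporter knocked in, and the control neurons were wild type (WT). Both were primary cortical neurons of embryos at E16.5, grown for 12 days, with 4 libraries of polyadenylated RNA per genotype that the labels call biological replicates. Nothing in the labels says whether the replicates came from separate embryos or separate cultures, so the p-values measure the spread between these libraries, which may be partly technical. The knock-in allele was in KO neurons alone, and the labels give neither its exact extent nor the strain.

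Sox proteins bind DNA through a high-mobility-group (HMG) box and act with partner factors, among them POU-domain proteins. SoxB1 proteins keep neural stem and progenitor cells undifferentiated and partly replace one another. SoxC proteins act later, in newborn neurons, where they activate genes of neuronal differentiation, and their levels normally decline as neurons mature.

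The 3 SoxC genes rose in KO neurons and none of the 3 SoxB1 genes did. In the authors' deposited table Sox11 was 2.08-fold, Sox4 2.06-fold and Sox12 1.92-fold higher in KO than in WT neurons. Sox3 fell to 26.8% of its WT level in KO neurons. Sox1 stood at 45.6% and Sox2 at 76.5% of WT in the same table, and neither passed the threshold, an adjusted p under 0.05. Altogether, 4 of the 6 genes passed, 3 higher and 1 lower in KO neurons, against 21.8% of all 18085 tested genes, of which 11.0% were higher and 10.9% lower.

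The direction is an inference, because the deposited header does not name it. It was set by the targeted gene: read as KO over WT, H2bc21 was at -3.45 on the log2 scale (SE 0.19, adjusted p = 4.49e-68) in the authors' deposited table, or 9.12% of the WT level. With the opposite sign, each gene described as higher would be lower and the reverse. No values of single libraries were analysed here, so the error of each value is the standard error (SE) that the authors' model drew from the 4 KO and 4 WT libraries, and 95% intervals are normal intervals from that SE. Depth per library is unknown here; mean normalized counts over all genes summed to 3.96e+07.

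The cultures carried neuronal transcripts. All 10 neuron-defining markers were tested, with mean normalized counts from 2271 for Slc17a6 to 90482 for Map2 in the authors' deposited table, whereas the cell-division genes Mki67 and Top2a had mean normalized counts of 35.8 and 32.3. By genotype, 3 of the 10 were higher in KO neurons and 1 was lower, against 21.8% of all tested genes called. Tubb3 (log2 fold change 0.74, SE 0.12), Rbfox3 (0.72, SE 0.19) and Slc17a7 (0.75, SE 0.24) were higher, and Gad1 (-1.02, SE 0.29) was lower. SoxC mean counts ran from 2311 to 4089, within the lower part of the range of the neuron-defining markers. SoxB1 mean counts ran from 85.7 to 754, below that range and above Mki67 and Top2a. These counts are not set per length. In bulk RNA a lower count from fewer cells of a type and a lower count per cell cannot be told apart, and this holds for every value below.

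The genes are compact and lie on 6 chromosomes of the build GRCm38 (mm10), in the GENCODE M21 annotation. Sox4 (ENSMUSG00000076431) is a single exon on the minus strand of chr13:28948919-28953713, and 1320 of its 4795 bases are coding. Sox11 (ENSMUSG00000063632) is a single exon on the minus strand of chr12:27334264-27342574, with 1185 coding bases of 8311. Sox12 (ENSMUSG00000051817) has 2 annotated transcripts on the minus strand of chr2:152393611-152398063, with 942 coding bases. Sox1 (ENSMUSG00000096014), on the plus strand of chr8:12395295-12400126, Sox2 (ENSMUSG00000074637), on the plus strand of chr3:34650405-34652461, and Sox3 (ENSMUSG00000045179), on the minus strand of chrX:60891366-60893430, are single exons as well. The coding share of the exonic length was 14.3% in Sox11, 21.2% in Sox12, 24.3% in Sox1, 27.5% in Sox4, 46.5% in Sox2 and 65.4% in Sox3, so that all but Sox3 are mostly untranslated by length.

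The family shares its HMG box, and shared sequence bears on how reads are assigned to its members. Whether the runs below lie inside the box was not mapped. The longest identical runs between members, read from the GENCODE transcripts, are shown because they are where a short read could fit 2 Sox genes; each lies in the coding part of both genes. The first is shared by Sox4 (chr13:28952749-28952796) and Sox11 (chr12:27342166-27342213), the second by Sox1 (chr8:12396727-12396771) and Sox3 (chrX:60892741-60892785), and the third by Sox1 (chr8:12396577-12396614) and Sox2 (chr3:34650608-34650645). Each is written 5′ to 3′ on the strand of the genes.
Sox4 and Sox11: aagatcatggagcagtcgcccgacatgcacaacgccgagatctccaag
Sox1 and Sox3: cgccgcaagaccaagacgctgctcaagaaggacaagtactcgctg
Sox1 and Sox2: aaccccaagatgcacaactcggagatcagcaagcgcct

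These runs are 48, 45 and 38 bases long. Sox4 and Sox12 share at most 33 identical bases and Sox11 and Sox12 at most 20. No 50-base word of any member occurred in another member, and none of those of Sox2, Sox3, Sox11 or Sox12 occurred in any other annotated transcript. Other annotated genes overlap Sox1 and Sox4. In Sox1, 37 of 4783 such words occurred in Gm25239, an annotated microRNA gene that shares 86 exonic bases with it on the same strand. In Sox4, 54.1% of the 50-base words occurred, on the opposite strand, in Gm26735, an annotated long noncoding RNA that shares 2616 exonic bases with Sox4. The libraries came from a stranded kit, per the labels' protocols, but the use of strand in counting is not given in the sources used here. Unless strand was used, reads of Sox4 and its antisense partner cannot be told apart, and the Sox4 values carry that uncertainty.

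Among the SoxC genes, Sox11 had the largest mean normalized count, 4089, and Sox12 the smallest error. Sox11 is a main SoxC factor of the developing cortex, where it promotes neuronal differentiation and axon growth. The authors' deposited table put it at 1.06 on the log2 scale, KO over WT, with an SE of 0.23 and a 95% interval of 0.60 to 1.51 (adjusted p = 1.10e-04), and the implied levels were 5523 normalized counts in KO neurons against 2656 in WT neurons. Sox4, its partly redundant partner in neuronal precursors, had a mean normalized count of 2311 and a log2 fold change of 1.04, with an SE of 0.26 and a 95% interval of 0.53 to 1.56 (adjusted p = 9.14e-04) in the same authors' deposited table. Its implied levels were 3111 normalized counts in KO neurons and 1510 in WT neurons.

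Sox12 is the weakest activator of the SoxC group and has largely been found dispensable for mouse development on its own. It had the smallest p of the 6 genes and the 63rd smallest of all tested genes, with a log2 fold change of 0.94, an SE of 0.13 and a 95% interval of 0.69 to 1.19 (adjusted p = 4.57e-11) in the authors' deposited table. Its implied levels were 3892 normalized counts in KO neurons and 2028 in WT neurons. The 3 SoxC estimates lay within 0.94 to 1.06 on the log2 scale, and the interval of each held the estimates of the other two. Whether the 3 changes differ from one another was not tested, since that needs values per library.

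The calls of Sox4, Sox11, Sox12 and Sox3, like those over all genes, depended on the null distribution taken for the authors' Wald statistic. With a t distribution (6 degrees of freedom) in place of the normal, their adjusted p ran from 0.0645 to 0.0955 and no member passed, but over all 18085 tested genes 0 were then higher and 1 lower, so the loss was not particular to the Sox genes. With a normal whose scale was set by all tested genes, 1.96 times the usual one, Sox12 alone of the members passed, at an adjusted p of 0.0479, and over all tested genes 46 were higher and 24 lower.

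Of the SoxB1 genes, Sox3 alone passed. Sox3, an X-linked SoxB1 gene expressed in neural progenitors, had the lowest level of the 6, a mean normalized count of 85.7. In the authors' deposited table its log2 fold change was -1.90, with an SE of 0.37 and a 95% interval of -2.63 to -1.16 (adjusted p = 1.25e-05), and the implied levels were 36.3 normalized counts in KO neurons and 135 in WT neurons. In terms of size this was the largest change among the members, at 16.1% to 44.6% of WT by its interval.

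Sox1 and Sox2 did not pass. Sox1, an early marker of the neural plate that also acts in ventral forebrain neurons, had a log2 fold change of -1.13, with an SE of 0.45 and a 95% interval of -2.02 to -0.24 (adjusted p = 0.0561), in the authors' deposited table, at implied levels of 472 normalized counts in KO neurons and 1036 in WT neurons. Its unadjusted interval left out 0 while its adjusted p lay just above the threshold. Sox2, the best known stem cell factor of the family, which astrocytes and their precursors also express, had a log2 fold change of -0.39 with an SE of 0.42 (adjusted p = 0.572) in the authors' deposited table, with implied levels of 373 normalized counts in KO neurons and 487 in WT neurons. Its interval ran from -1.22 to 0.45, from 43.0% to 136% of the WT level. With its SE, only a change of at least 1.08 on the log2 scale would have been called, so a moderate change of Sox2 was not detectable here.

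**Figure D1:**
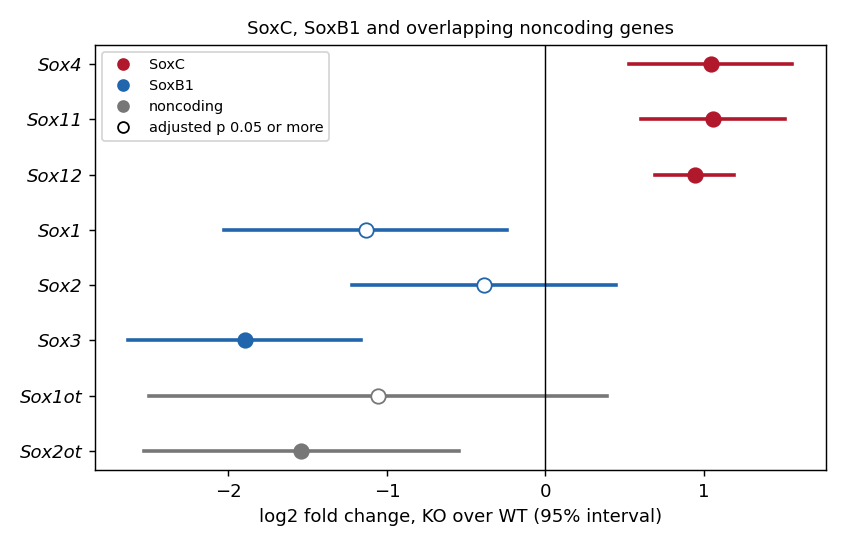
Log2 fold change, KO over WT (x axis), of the 3 SoxC genes (red), the 3 SoxB1 genes (blue) and 2 noncoding genes that enclose SoxB1 genes (grey); lines are 95% intervals, and filled points have an adjusted p under 0.05. The SoxC intervals lie wholly above 0, from 0.53 to 1.56 at their widest, while the interval of Sox3 lies wholly below 0, at -2.63 to -1.16, and that of Sox2 spans 0.

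**Figure D2:**
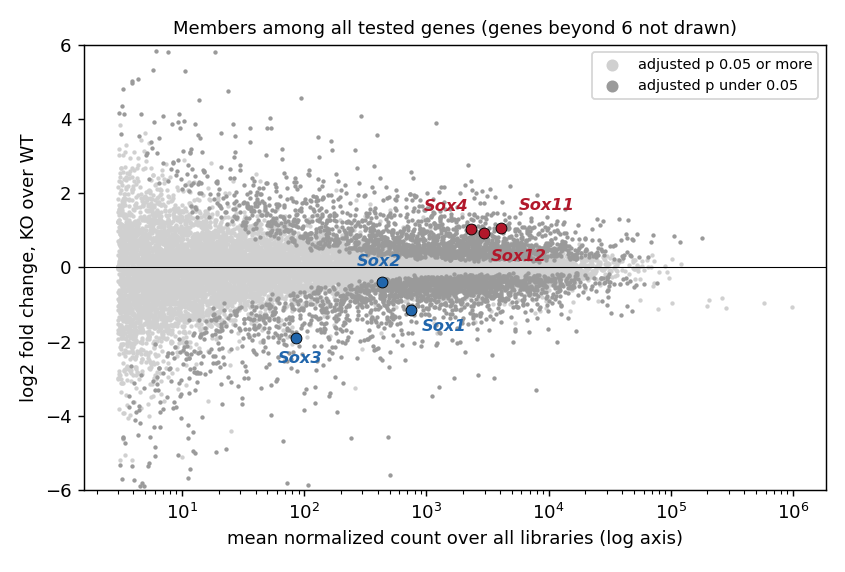
Log2 fold change, KO over WT (y axis), against mean normalized count over all libraries (log x axis) for the tested genes, with the Sox genes in colour (red SoxC, blue SoxB1); dark grey genes have an adjusted p under 0.05, and 12 genes beyond 6 in size are not drawn. The SoxC genes, at mean counts of 2311 to 4089, sit together near 1, and Sox3, at 85.7, sits at -1.90.

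Levels between genes were compared per kilobase of annotated exon. Over all libraries Sox12 was highest at 665 normalized counts per kilobase, followed by Sox11 at 492, Sox4 at 482, Sox2 at 209, Sox1 at 156 and Sox3 at 41.5. Sox11 and Sox4 were close to equal per length although the raw count of Sox11 was far larger, and the order of such neighbours was not tested. In KO neurons the implied levels were 874 normalized counts per kilobase for Sox12, 664 for Sox11, 649 for Sox4, 181 for Sox2, 97.8 for Sox1 and 17.6 for Sox3. In WT neurons they were 455 for Sox12, 320 for Sox11, 315 for Sox4, 237 for Sox2, 214 for Sox1 and 65.4 for Sox3. The order of the 6 genes was thus the same in both genotypes, with a wider gap between SoxC and SoxB1 levels in KO neurons.

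Summed over its 3 genes, SoxC came to 2187 normalized counts per kilobase in KO neurons and 1090 in WT neurons, and SoxB1 to 297 in KO neurons and 517 in WT neurons. SoxC thus exceeded SoxB1 7.37-fold per length in KO neurons and 2.11-fold in WT neurons, a description without a test. Within SoxC the makeup was nearly constant: Sox12 made up 40.0% of the summed level in KO neurons and 41.8% in WT neurons, Sox11 30.4% in KO and 29.3% in WT neurons, and Sox4 29.7% in KO and 28.9% in WT neurons. Within SoxB1 it shifted more: Sox2 made up 61.1% in KO neurons and 45.8% in WT neurons, Sox1 33.0% in KO and 41.5% in WT neurons, and Sox3 5.92% in KO and 12.7% in WT neurons.

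**Figure D3:**
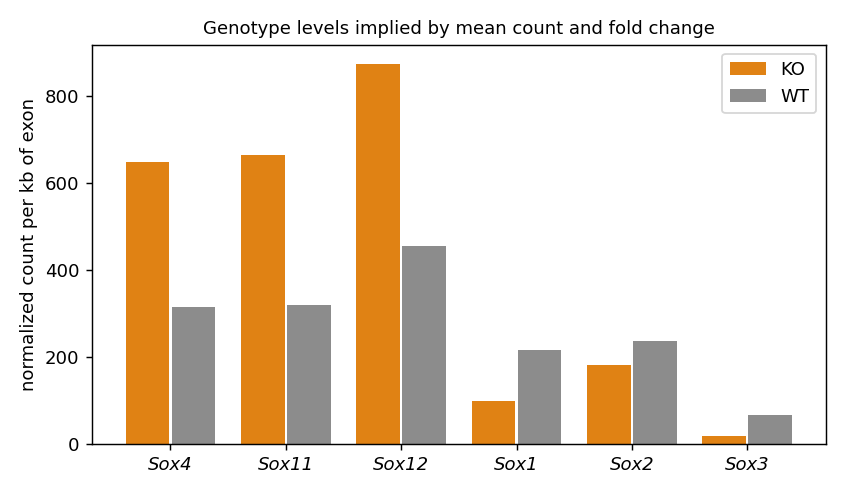
Normalized count per kilobase of exon (y axis) in KO (orange) and WT neurons (grey), as implied by the mean count and the fold change in the authors' deposited table, with no error per genotype. Each SoxC bar is higher in KO neurons, for example 874 against 455 for Sox12, and each SoxB1 bar is lower, for example 17.6 against 65.4 for Sox3; of the SoxB1 differences, that of Sox3 alone passed the test.

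The members differed in how precisely they were measured. For each gene the SE was set beside those of the 1000 tested genes nearest to it in mean count. The SE of Sox12, 0.13, was ordinary: 51.8% of such genes had a smaller one. Those of Sox11 and Sox4 were larger than in 92.5% and 93.6% of genes of like count, and those of Sox1 and Sox2 than in 99.0% and 96.3%. For Sox1, whose mean count was 754, the SE of 0.45 compared with a median of 0.154 for like counts. Sox3, though least abundant, had an SE of 0.37 against a median of 0.33, smaller than that of Sox1 or Sox2. The error of Sox1 and Sox2 was thus larger than is usual at their level, and which libraries were high or low was not analysed here.

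**Figure D4:**
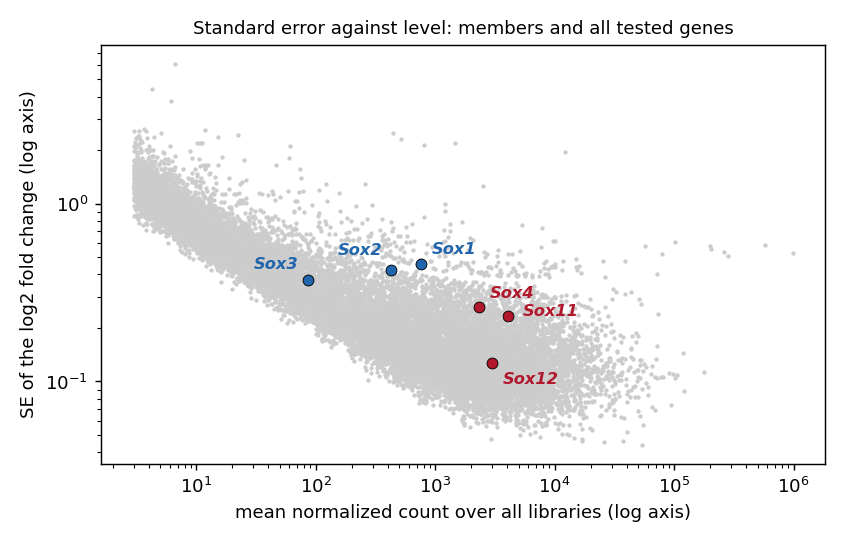
SE of the log2 fold change (log y axis) against mean normalized count (log x axis) for all tested genes (grey), with SoxB1 genes in blue and SoxC genes in red. Sox12 (SE 0.13) lies inside the cloud, whereas Sox1 (0.45) and Sox2 (0.42) lie along its upper edge.

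Sox1 and Sox2 each lie inside a longer noncoding gene on the same strand. Sox2ot, which encloses Sox2 and is transcribed with it in neural progenitors, fell in KO neurons, with a log2 fold change of -1.54 and an SE of 0.51 (adjusted p = 0.0152) in the authors' deposited table, where its mean normalized count was 1202. Sox1ot, around Sox1, was at -1.05 on the log2 scale with an SE of 0.74 (adjusted p = 0.326) in the same authors' deposited table, where its mean normalized count was 569. As with their coding neighbours, the SEs were wide: 98.7% of genes of like count had a smaller SE than Sox2ot and 99.8% a smaller one than Sox1ot. The annotated exons share 0 bases in either pair, but unspliced reads of the long transcript could fall within the coding gene, and their share was not tested.

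The start regions of the SoxC genes are shown because the 3 genes, on 3 chromosomes, rose by like amounts. Each line gives the 250 bases before the RefSeq start site (RefSeq, GRCm38.p6), 5′ to 3′ on the minus strand, at chr13:28953700-28953949 for Sox4, chr12:27342719-27342968 for Sox11 and chr2:152398047-152398296 for Sox12. Capitals mark matches to the CCAAT box (CCAAT, or ATTGG on the other strand) and to the octamer (ATGCAAAT, or its reverse complement), a core sequence that POU-domain proteins bind.
Sox4: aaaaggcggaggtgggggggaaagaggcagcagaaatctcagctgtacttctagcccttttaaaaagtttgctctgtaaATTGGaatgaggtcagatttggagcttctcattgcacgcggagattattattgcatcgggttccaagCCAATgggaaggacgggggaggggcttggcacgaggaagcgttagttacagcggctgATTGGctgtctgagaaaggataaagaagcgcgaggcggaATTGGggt
Sox11: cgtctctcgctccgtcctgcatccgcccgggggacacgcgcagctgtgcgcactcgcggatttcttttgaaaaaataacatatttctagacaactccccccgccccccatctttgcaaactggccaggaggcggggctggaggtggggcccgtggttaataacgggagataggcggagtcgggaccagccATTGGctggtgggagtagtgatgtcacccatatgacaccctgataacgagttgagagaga
Sox12: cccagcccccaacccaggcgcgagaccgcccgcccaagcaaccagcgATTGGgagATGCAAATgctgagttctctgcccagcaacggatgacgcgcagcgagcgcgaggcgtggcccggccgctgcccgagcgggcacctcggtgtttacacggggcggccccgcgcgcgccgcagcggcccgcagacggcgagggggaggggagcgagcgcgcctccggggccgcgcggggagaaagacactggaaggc

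The 3 windows differ in base composition. Sox12 was 74.4% G and C with 35 CpG dinucleotides, Sox11 58.0% with 17, and Sox4 50.8% with 11, against medians of 52.0% and 6 over 27025 promoters. Sox4 held 4 CCAAT boxes, the others 1 each, and such a match was found in 34.5% of all promoters. The octamer occurred in Sox12 alone of the 3, and in 1.61% of all promoters. GC boxes (GGGCGG, or CCGCCC on the other strand) numbered 3 in Sox12, 2 in Sox11 and 0 in Sox4, and occurred in 32.9% of all promoters. A SOX-type match (ACAAAG, or CTTTGT on the other strand), found in 16.46% of all promoters, was in none of the 3 SoxC windows and once in that of Sox2, which also held 1 CCAAT box, as did that of Sox1. A match is a run of letters, not a site shown to be bound. RefSeq windows were matched for 5 of the 6 genes, all but Sox3.

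Of the other Sox genes, 11 were listed and 6 tested, with 3 higher, 1 lower and 2 not past the threshold, which 21.8% of all tested genes passed. Sox5, a SoxD factor of deep-layer projection neurons, was at 0.78 (log2 fold change, SE 0.25, adjusted p = 0.0117), and Sox6, a SoxD factor of interneurons from the medial ganglionic eminence, was at -0.72 (SE 0.25, adjusted p = 0.0215) in the authors' deposited table. Sox13 and Sox8 rose to 3.56 (SE 0.93) and 2.27 (SE 0.80) in the authors' deposited table, at mean normalized counts of only 13.5 and 19.2. Sox9, a SoxE factor of astrocytes and their precursors, was at -0.65 (SE 0.31, adjusted p = 0.117), and Sox21, a SoxB2 factor that counteracts SoxB1 proteins, at 0.69 (SE 0.89, adjusted p = 0.637). Among the Sox genes whose mean normalized count reached 100, the SoxC genes thus had the largest positive log2 fold changes, ahead of Sox5; the gap to Sox5 was not tested.

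Partners and candidate targets of each group were counted from lists drawn up from general knowledge of the family. Earlier results of these data were known when the lists were made, so the counts are not independent of them. Over all tested genes 11.0% were higher and 10.9% lower in KO neurons. For SoxC, 9 of 16 tested genes were higher in KO neurons, 1 was lower and 6 were not called; the median log2 fold change of the list was 0.90, against -0.02 over all tested genes. In the authors' deposited table Islr2, the gene of a membrane protein of growing axons, was at 1.58 (SE 0.25, adjusted p = 2.06e-08), Tubb3, a neuronal tubulin gene, at 0.74 (SE 0.12) and Mapt, the gene of tau, at 0.68 (SE 0.11). Neurog2, a proneural factor gene, was the one that fell, to -1.88 (SE 0.49). Mean normalized counts of these 16 genes ran from 11.7 to 90482, and a call is easier at high counts, where SEs are smaller. Of the 16 genes, 4 also belong to the list of immature neuron markers below.

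For SoxB1, 1 of 14 tested partners and candidate targets was higher, 1 was lower and 12 did not pass, a share of calls below the 21.8% of all tested genes; the median was 0.36, and 6 had an unadjusted p under 0.05. Lin28b, an RNA-binding protein gene of progenitors, was at 0.84 (SE 0.26, adjusted p = 0.00932) and the POU factor gene Pou3f4 at -0.72 (SE 0.26, adjusted p = 0.0272) in the authors' deposited table. The called genes went in opposite directions, while 10 of the 14 lay above 0 and 4 below.

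The cell stages that the Sox groups mark were compared by their other markers, against 11.0% higher and 10.9% lower over all tested genes. Markers listed for immature neurons, the stage of SoxC, numbered 22, of which 15 were higher and 1 lower in KO neurons. The median of these 22 markers was 0.68. The list does not isolate a stage: Tubb3 is also a neuron-defining marker, and Rbfox3 (0.72) and Slc17a7 (0.75) of the neuron-defining markers rose too. Of those 10 markers 3 were higher, 1 was lower and 6 were not called. Whether stage or type of neuron differed was not tested. Mean normalized counts of the 22 immature neuron markers ran from 69.0 to 105901, and a call is easier at high counts, where SEs are smaller. Dpysl3 was at 0.85 (SE 0.11) and Tbr1 at 1.90 (SE 0.28) in the authors' deposited table. Progenitor and radial glia markers, the stage of SoxB1, numbered 19, of which 4 were higher and 2 lower, and their median was 0.69. Hes1, a Notch target gene, was at 2.17 (SE 0.39) and Emx1 at 1.41 (SE 0.27) in the authors' deposited table, both opposite in sign to the SoxB1 genes, whereas Neurog2 (-1.88, SE 0.49) and Ptprz1 (-0.86, SE 0.26), a receptor phosphatase gene, fell. Of 10 proliferation markers, 0 passed in DESeq2 and 0 had an unadjusted p under 0.05; Pcna was at 0.11 (SE 0.17) and Mcm2 at 0.06 (SE 0.18) in the authors' deposited table. Of the 19 progenitor and radial glia markers 13 were not called and 13 lay above 0 (8645 of 18085 among all tested genes). Their implied levels summed to 15836 normalized counts in KO neurons and 17806 in WT neurons. Ptprz1, which fell, held 7935 of the list's summed mean count of 16821, so the lower KO sum leans on 1 gene. The called genes of the list went in both directions, while its median lay above 0.

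Markers of other cell types were counted in the same way, against 21.8% called over all tested genes. Of 16 GABAergic interneuron markers, 8 were lower and 14 lay below 0, with a median of -1.15, and their implied levels summed to 67139 normalized counts in KO neurons and 128995 in WT neurons. Of these, Npy (-2.89, SE 0.41), Lhx6 (-1.26, SE 0.27) and Nxph1 (-1.14, SE 0.25) had the smallest adjusted p in the authors' deposited table. Of 14 tested astrocyte markers, 5 were higher and 9 were not called, while 12 lay above 0, with a median of 0.90. Their summed levels were 37929 normalized counts in KO neurons and 21758 in WT neurons. Slc1a2 and Sparcl1 held 13490 and 9960 of that list's summed mean count of 29843, so its sums lean on these genes. Slc1a2 (0.93, SE 0.24), Glul (0.72, SE 0.20) and Id4 (1.26, SE 0.37) came first by adjusted p in the authors' deposited table. Gfap, Aqp4, Aldh1l1 and Gja1 lay above 0 but were not called. Of 8 tested oligodendrocyte lineage markers 2 were higher, near that share, Mog at 0.99 and Cnp at 0.51, with summed levels of 2314 normalized counts in KO neurons and 1896 in WT neurons. Of 8 tested microglia markers 5 were lower, with a median of -2.58 and summed levels of 220.3 normalized counts in KO neurons and 999 in WT neurons. Cd68 held 503 of that list's summed mean count of 612. The other called microglia markers, Csf1r, C1qa, Trem2 and Tyrobp, had mean normalized counts of only 25.0, 15.5, 9.86 and 9.85. Of 7 tested endothelial and mural markers 3 were lower, with a median of -1.21 and summed levels of 1314 normalized counts in KO neurons and 2064 in WT neurons. Rgs5, which was not called (-0.46, SE 0.70), held 1318 of that list's summed mean count of 1692. Cldn5, among the 3 called, had a mean normalized count of only 3.00. Defining markers near 0, by mean normalized count in the authors' deposited table, were Sox10 (0.294) and Mag (1.39) of oligodendrocytes, Tmem119 (1.02) and P2ry12 (1.52) of microglia and Cdh5 (1.33) of endothelium. The part of these cell types in the Sox values was not tested.

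**Figure D5:**
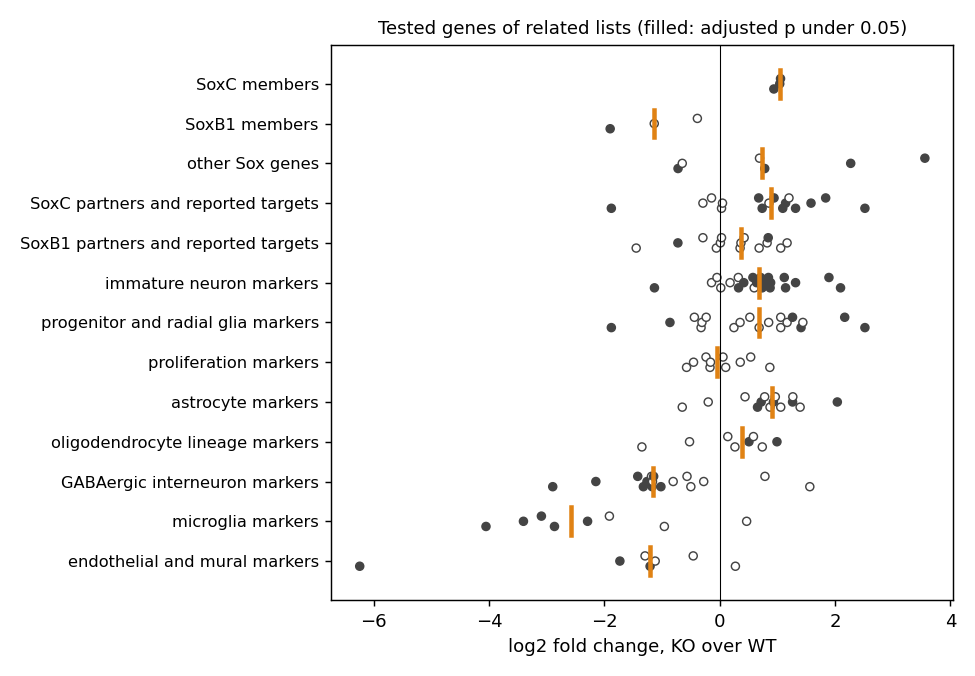
Log2 fold change, KO over WT (x axis), of each tested gene (circle, filled where the adjusted p is under 0.05, spread vertically for sight) in the SoxC and SoxB1 groups and related lists (rows), with the list median as an orange bar. SoxC genes and immature neuron markers lie mostly to the right (medians 1.04 and 0.68), and SoxB1 genes and GABAergic interneuron markers mostly to the left (-1.13 and -1.15). Medians to the right also include those of progenitor and radial glia markers (0.69), astrocyte markers (0.90) and other Sox genes (0.74). Those of microglia markers (-2.58) and endothelial and mural markers (-1.21) lie to the left.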

How the data were processed

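Polyadenylated RNA of 4 KO and 4 WT libraries was compared by the authors. The submitters' processing notes name the build mm10 and the tools DESeq2 and DESeq, without versions. The sources used here give neither aligner nor counter, annotation or use of strand. Per the file headers, the deposited signal per gene is the normalized count averaged over all libraries, and the deposited fold change and SE are on the log2 scale. The deposited score, a Wald statistic, was checked to equal fold change over SE (largest gap 2.86e-07), and the deposited p-value and its Benjamini-Hochberg adjustment over 18085 genes were recomputed to within 0.477% and 0.757%. Another 8135 genes had a p-value without an adjusted one and 9 had neither; a missing value stayed missing.

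Signs were turned to KO over WT by the targeted gene. Genotype levels were computed from the deposited mean count and fold change, taking the fold as the ratio of group means in groups of equal size. Lengths are exon unions of GENCODE M21. All 6 members were named in full; of other lists, up to 3 called genes of smallest adjusted p, or the 2 of highest mean count if none was called, and of the other Sox genes all called and the 2 most abundant not called. Others, such as Gm26735, Gm25239, Ptprz1, Map2 and Mki67, and the promoter motifs were chosen after values or sequences were seen. The members and the 15 lists were chosen with earlier results of these data known. The alternatives were other thresholds, filters, null distributions and centring; the code was tested on simulated data. Python 3.11.15, numpy 2.4.6, pandas 2.3.3, scipy 1.17.1 and matplotlib 3.10.9 were used.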

Additional observations from a re-analysis of the deposited data

How the results depend on the processing

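Of 41 calls of the Sox genes remade under the alternatives, 32 stayed on the same side of the threshold. At thresholds of 0.01 and 0.1 the adjusted p was the deposited one, and only the threshold changed. Centring was the one alternative of the 7 that changed fold changes. Sox1 passed at a threshold of 0.1 (adjusted p = 0.0561) and among genes of mean count 100 or more (0.0427), so that 2 members were then lower at 0.1. Taking p from the t distribution (6 degrees of freedom), the adjusted p was 0.0716 for Sox3, 0.0955 for Sox4, 0.0778 for Sox11 and 0.0645 for Sox12; 0 members were higher and 0 lower, and over all genes 0 were higher and 1 lower. With the scale of the Wald statistic set by its interquartile range, 1.96 times that of the normal, Sox12 alone of the members passed (1 higher, 0 lower), with adjusted p = 0.305 for Sox3, 0.556 for Sox4 and 0.408 for Sox11; over all genes 46 were higher and 24 lower. A threshold of 0.01 left 1192 genes lower over all. Sox3 has no value under the filter at mean count 100. Centring moved all log2 fold changes by less than 0.1, since the median was -0.01, too little to turn the sign of any member. Counts in the related lists were unchanged or stayed within 1.5 times in 127 of 182 cases, and 55 moved further. The unchanged cases include those with 0 genes called both times, such as the proliferation markers under every alternative. Such cases say little about how stable the counts are. For the 6 Sox genes the longest transcript is as long as the union of exons, so that this alternative could not move their levels. No paired analysis was possible because no values per library were analysed here, and leaving out single libraries was not run for the same reason. Depth per library is unknown here, so what it limits cannot be given beyond the SE.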
